A study of Mus musculus with 6 samples.

Results

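The genes described here are the proteasome subunits of the mouse, with the activators, inhibitor and assembly chaperones that share their symbols. They were the rows whose symbol began with Psma, Psmb, Psmc, Psmd, Psme, Psmf or Psmg followed by a number, with at least 1 CPM (counts scaled to library size) in 3 or more of the 6 libraries. Of 32531 gene rows, 50 had such a symbol and 45 reached that level. The 45 comprised 14 subunits of the core particle, 17 of the regulatory cap, 1 inducible catalytic subunit (Psmb10) and 13 other genes. The other 13 were 4 activators, 1 inhibitor, 7 assembly chaperones and Psmc3ip, a meiotic recombination protein that has no place in the proteasome and matched by its symbol alone.

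The proteasome is the protease that degrades proteins tagged with ubiquitin. Its core particle (20S) is a barrel of outer alpha rings, which gate the entrance, and inner beta rings, of which Psmb5, Psmb6 and Psmb7 hold the active sites. The cap (19S) sits on the barrel, and its lid and ubiquitin receptors take up and deubiquitinate the substrate while a ring of ATPases unfolds it and threads it into the core. Under interferon, and constitutively in cells of the immune system, Psmb8, Psmb9 and Psmb10 take the places of the constitutive catalytic subunits and form the immunoproteasome, which is known for making peptides for antigen presentation. Neurons use the constitutive proteasome for protein turnover at synapses as well as in the cell body.

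The study sequenced RNA from the thalamus of adult Slc17a6-EGFP/Rpl10a mice of the line JX883, all of them untreated controls. In this line a ribosomal protein with a fluorescent tag is expressed under Slc17a6, which encodes a glutamate transporter of synaptic vesicles in thalamic relay neurons, so that an antibody to the tag pulls down the ribosomes of those cells (translating ribosome affinity purification). The 3 IP libraries held RNA from that pull-down and the 3 Input libraries came from the same dissected tissue, both numbered 1 to 3 in the titles. Both groups carried the transgene, and there was no group without the tag, so RNA that sticks to the beads was not measured. The labels give neither the sex nor the number of animals behind a library and do not say that replicates were separate animals, so a p-value here measures the spread between libraries, which may be technical. The molecule named for Input is also RNA bound to ribosomes, and Input was taken here as RNA of the whole tissue.

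Libraries held 44081149 to 54421395 reads in genes, and 3 reads were worth 0.0551 to 0.0681 CPM. Slc17a6 itself stood at 2193 to 6489 CPM in IP and 477 to 3153 CPM in Input and was higher in IP in 3 of 3 pairs. The groups overlapped, and it passed as higher with the replicate block (edgeR adjusted p = 0.000246) but not without it (edgeR adjusted p = 0.206). Of 9 markers of thalamic glutamatergic neurons 5 passed as higher in IP. Of 9 markers of oligodendrocytes 9, of 9 of astrocytes 8, of 15 of microglia 14 and of 10 of endothelium 5 passed as lower. Over all genes tested, 9.6% passed as higher and 15.6% as lower. Some microglial and endothelial markers, such as Trem2 with 0 IP reads, passed the filter on low counts only through Input, so these 2 counts are not read further. A list of 10 general neuronal markers had 4 higher and 0 lower, with a median log2 fold change of 0.47. With the replicate block the microglial C1qa and the astrocytic Aldh1l1 also passed as lower, and the endothelial Esam no longer did. Slc17a6 was highest in replicate 1 of both groups, at 6489 CPM in IP and 3153 CPM in Input. In markers of cortex, hippocampus and striatum, Input replicate 3 stood apart most. Relative to the average of Input replicates 1 and 2, its median cortical or hippocampal marker was at 9.91 times, its median striatal marker at 4.61 times and its median thalamic marker at 0.559 times. The median proteasome gene was at 0.96 times, though single genes moved further, among them Psmg4 (11.4 CPM, against 2.26 and 4.34) and Psme2 (3.91 CPM, against 7.26 and 12.3). IP replicate 3 was raised in such markers too. Cortical and hippocampal markers summed to 227 CPM there, against 87.1 and 113 CPM in IP replicates 1 and 2, and striatal markers to 153, against 89.8 and 59.8. In bulk RNA of this kind, fewer cells of a type and less RNA per cell cannot be told apart, and here a higher level in IP is a higher share of tagged ribosomal RNA, not of protein.

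Promoters of proteasome genes are known to carry short antioxidant response elements, through which the factor encoded by Nfe2l1 raises subunit genes together when the proteasome is inhibited. The stretches below run from 120 bases before to 20 bases after the annotated start of Psmb6 and Psmb5, which encode active sites, of Psme4, the one gene of the set called lower in IP, and of Psmg3, the one with the largest rise. Sequences are those of RefSeq on build GRCm38.p6, 5′ to 3′ on the strand of the gene, and capitals mark the letters TGACNNNGC of the element on either strand. Psmb6 lies at chr11:70525237-70525376 on the plus strand, Psmb5 at chr14:54617976-54618115 on the minus strand, Psme4 at chr11:30771655-30771794 on the plus strand and Psmg3 at chr5:139826875-139827014 on the minus strand.
Psmb6: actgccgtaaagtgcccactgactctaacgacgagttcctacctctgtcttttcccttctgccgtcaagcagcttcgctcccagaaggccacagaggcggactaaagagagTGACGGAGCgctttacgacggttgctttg
Psmb5: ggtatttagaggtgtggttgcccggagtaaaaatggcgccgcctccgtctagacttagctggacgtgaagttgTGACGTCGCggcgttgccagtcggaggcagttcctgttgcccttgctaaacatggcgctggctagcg
Psme4: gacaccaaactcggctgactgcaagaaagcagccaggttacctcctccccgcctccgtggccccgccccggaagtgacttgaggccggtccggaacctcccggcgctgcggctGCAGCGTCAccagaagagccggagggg
Psmg3: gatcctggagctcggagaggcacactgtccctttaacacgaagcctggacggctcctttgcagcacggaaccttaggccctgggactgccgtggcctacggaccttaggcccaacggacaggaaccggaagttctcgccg

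The element began 9 bases before the start in Psmb6, 47 before it in Psmb5 and 7 before it in Psme4, where the letters read on the opposite strand, and no such letters stood in the stretch of Psmg3. RefSeq promoters, 250 bases before to 50 after the start, were found for 38 of the 45 genes. The element's letters were in 6 of these 38 (15.8%), against 14% of the 27025 genes with a promoter in the table. The CCAAT letters were in 13 (34.2%, against 41.1%), and the core of the interferon response element, GAAA followed by any 2 bases and GAAA again, was in 5 (13.2%, against 3.99%): Psmb3, Psmd4, Psmd9, Psme1 and Psmg4. Both strands were searched for each motif, and a match is a description of letters, not of a bound site. Of the 6 genes with the antioxidant letters, Psmb6 passed as higher in IP, Psme4 as lower, and Psmb5, Psmc6, Psmd9 and Psmd12 did not pass.

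Of the 45 genes, 12 rose in IP relative to Input, 1 fell and 32 did not pass the test (edgeR's quasi-likelihood test, adjusted p under 0.05 over 16496 genes). The 12 were the beta ring subunits Psmb1, Psmb2, Psmb4, Psmb6 and Psmb7, the inducible Psmb10, the cap subunits Psmd3, Psmd4, Psmd7 and Psmd8 and the core chaperones Psmg1 and Psmg3, and the 1 that fell was the activator Psme4. Higher calls thus made up 26.7% of the set, against 9.6% of all genes tested and 14.1% of the 10907 genes averaging 5 CPM or more. Lower calls made up 2.22%, against 15.6% of all genes and 12.9% of that more abundant class. The median log2 fold change of IP over Input was 0.42, with 40 of 45 values above 0 (88.9%, against 48.1% of all genes), beside a median of −0.04 over all genes, 0.13 over the more abundant class and 0.47 over the 10 neuronal markers. In 25 genes (55.6%) every IP library was above every Input library, against 19.9% of all genes tested, and in 2 genes, Psme4 and Psmf1, every IP library was below, against 25%. Of the 10907 more abundant genes, 6249 had a log2 fold change above 0. Every IP library was above every Input library in 2910 of these 10907, and below in 2117.

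Titles number both groups 1 to 3, and same-numbered libraries, here called pairs, deviated together. The fit above used group alone and left this pairing out, and the fits with libraries left out did the same. The edgeR adjusted p-values given by gene come from fits on group alone unless the block is named. With the replicate block in the edgeR fit, 21 genes passed as higher (46.7%, against 15.9% of all genes) and 1 as lower (19.2% of all genes), and the 9 added were Psma2, Psma6, Psma7, Psmb3, Psmb5, Psmd2, Psmd5, Psmd13 and Psme2. Without Input replicate 3, edgeR called 11 higher and 1 lower, against 9.48% and 15% of 17296 genes. The count of 12 moved with single libraries: it was 12 without IP replicate 1, 3 without IP replicate 2, 3 without IP replicate 3, 6 without Input replicate 1 and 6 without Input replicate 2. Higher calls over all genes fell too, from 1583 of 16496 to 731 of 17346 without IP replicate 2 and 808 of 17324 without IP replicate 3. The median log2 fold change of the 45 genes was 0.32 and 0.46 in these 2 fits. Psmb1, Psmb6, Psmg3 and Psme4 passed in 6 of the 6 edgeR fits without 1 library, and the other 9 genes lost the call in at least 1, with the same sign of fold change throughout. When both libraries of replicate 2 were left out, Psme4 alone passed (edgeR adjusted p = 0.0367), with Psmb1 at 0.114, Psmb6 at 0.128 and Psmg3 at 0.0811 in the same edgeR fit.

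**Figure D1:**
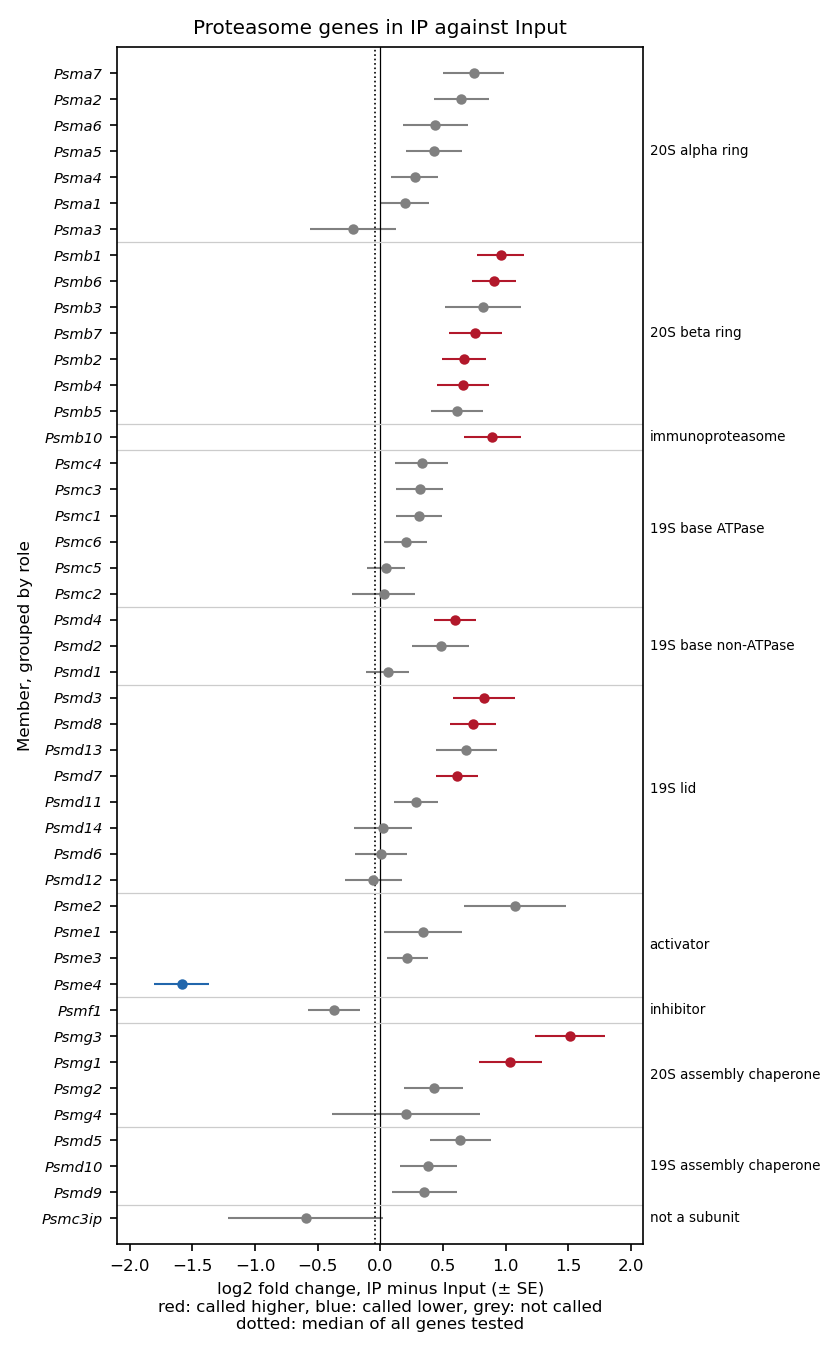
Log2 fold change of IP over Input (horizontal axis) for each of the 45 genes (vertical axis, grouped by role), with bars of 1 SE from the edgeR fit over 3 IP and 3 Input libraries; red points were called higher, the blue point lower and grey points neither, and the dotted line is the median of all genes tested. Beta ring subunits lie between 0.61 and 0.96, base ATPases between 0.03 and 0.33, and Psme4 stands alone at −1.59.

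The beta ring was the part of the core with the highest ratios. Its 7 constitutive subunits had a median log2 fold change of 0.76, and 5 of 7 passed as higher, against 9.6% of all genes. In 7 of 7 every IP library was above every Input library, against 19.9% of all genes and 2910 of the 10907 more abundant ones. With the replicate block 7 of 7 passed in edgeR, against 15.9% of all genes. Psmb1, a structural subunit, stood at 111, 135 and 113 CPM in IP replicates 1, 2 and 3 and at 66.0, 66.2 and 52.4 CPM in Input replicates 1, 2 and 3. Its lowest IP library lay far above its highest Input library, and its log2 fold change was 0.96 ± 0.19 (SE, n = 3 per group, edgeR adjusted p = 0.00752). Psmb6, which holds the caspase-like active site, stood at 94.0, 116 and 98.6 CPM in IP and 54.2, 58.0 and 52.6 CPM in Input, with a log2 fold change of 0.90 ± 0.18 (edgeR adjusted p = 0.00758). The gene lies at chr11:70525367-70527858 on the plus strand (GENCODE M21, GRCm38).

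Psmb7, which holds the trypsin-like site, stood at 110, 179 and 136 CPM in IP and at 81.3, 89.0 and 81.1 CPM in Input. Its IP libraries were high throughout and highest in replicate 2. The log2 fold change was 0.76 ± 0.21 (edgeR adjusted p = 0.0303), and the call ended without any 1 library but IP replicate 1, with 0.124 as the highest edgeR adjusted p, without IP replicate 2. Of its exon bases 11.8% overlap Nek6 on the opposite strand. Psmb5, the chymotrypsin-like site and the target of clinical proteasome inhibitors, stood at 35.7, 41.8 and 41.7 CPM in IP and at 27.1, 29.1 and 21.9 CPM in Input. These groups did not overlap, but the log2 fold change of 0.61 ± 0.21 missed the threshold in edgeR (edgeR adjusted p = 0.0604). It passed with the replicate block (edgeR adjusted p = 0.0355), and in DESeq2 without the block. Of the exonic 50-base words of Psmb5, 47.4% also occur in other genes, among them the pseudogene Psmb5-ps, so its counts are uncertain.

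The structural subunit Psmb2 stood at 118, 132 and 128 CPM in IP and 71.7, 76.7 and 89.9 CPM in Input, and its log2 fold change was 0.67 ± 0.17 (edgeR adjusted p = 0.0234). Psmb4 stood at 134, 192 and 142 CPM in IP and 91.7, 117 and 88.0 CPM in Input, with a log2 fold change of 0.66 ± 0.21 (edgeR adjusted p = 0.0481). Neither gene's groups overlapped. Psmb2 held its call without IP replicate 1 or Input replicate 3 and lost it without any other library (edgeR adjusted p up to 0.0921, without Input replicate 2), and Psmb4 held it without IP replicate 1 alone (up to 0.184, without IP replicate 2). Psmb3 stood at 17.7, 23.2 and 18.4 CPM in IP and 8.24, 15.7 and 9.70 CPM in Input, with a log2 fold change of 0.82 ± 0.31. It missed the threshold without the replicate block (edgeR adjusted p = 0.084) and passed with it (edgeR adjusted p = 0.022), and 55.8% of its 50-base words are shared with other genes.

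**Figure D2:**
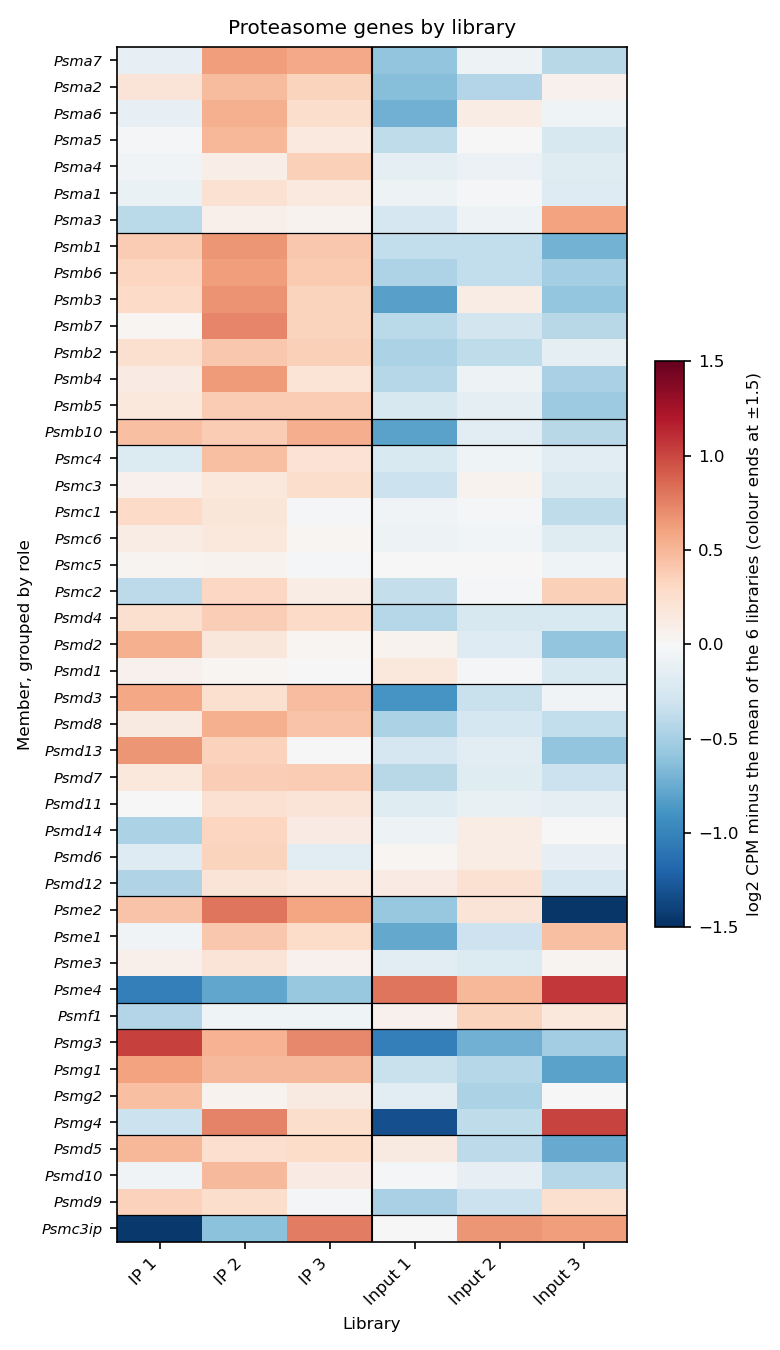
Heat map of the 45 genes (rows, grouped by role) in the 6 libraries (columns, IP left of the line and Input right of it), where colour gives log2 CPM minus the gene's mean over the 6 libraries and ends at ±1.5. Rows of the beta ring are higher in IP in 7 of 7 subunits, those of the base ATPases differ little, and the row of Psme4 is reversed (27.7 to 38.1 CPM in IP, 79.7 to 118 CPM in Input).

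Alpha ring subunits had smaller ratios, and 0 of 7 passed in edgeR without the block (2 of 7 at an unadjusted p under 0.05), while DESeq2 and limma-voom gave calls for Psma2 and, in DESeq2, for Psma7. Their median log2 fold change was 0.43. Psma7 stood at 129, 217 and 208 CPM in IP and at 93.0, 133 and 105 CPM in Input. IP replicate 1 lay below Input replicate 2, so the groups overlapped, though IP was higher in 3 of 3 pairs. The log2 fold change of 0.75 ± 0.25 had an edgeR adjusted p of 0.0548, and of 0.00488 with the replicate block. Psma2 stood at 110, 133 and 121 CPM in IP and at 61.7, 70.9 and 100 CPM in Input, without overlap, with a log2 fold change of 0.65 ± 0.22 and an edgeR adjusted p of 0.0602, and of 0.0117 with the block.

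Psma6 stood at 76.9, 121 and 100 CPM in IP and at 50.7, 89.8 and 79.5 CPM in Input. The groups overlapped, with IP higher within 3 of 3 pairs, and the log2 fold change of 0.44 passed only with the replicate block (edgeR adjusted p = 0.0413). Psma3 was the low end of the ring, at 6.65, 9.31 and 9.16 CPM in IP and 7.44, 8.35 and 13.4 CPM in Input. Its groups overlapped, its log2 fold change was −0.21 without a call and turned positive when Input replicate 3 was left out, and 22% of its 50-base words are shared with other genes. The remaining log2 fold changes, none past the threshold, were 0.19 for Psma1, 0.27 for Psma4 and 0.43 for Psma5.

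The inducible catalytic subunits did not move together. Psmb10, the counterpart of Psmb7, passed as higher in IP, while Psmb8, the counterpart of Psmb5, and Psmb9, the counterpart of Psmb6, stayed under the level that the choice of genes required. Psmb10 stood at 37.1, 35.4 and 39.5 CPM in IP and at 15.6, 24.4 and 20.3 CPM in Input. Its groups were well apart, with a log2 fold change of 0.89 ± 0.23 (edgeR adjusted p = 0.0216). The call ended without IP replicate 2, without IP replicate 3 or without Input replicate 1 (edgeR adjusted p = 0.0634, 0.0755 and 0.0531).

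Psmb8 had 1, 0 and 1 reads in IP and 32, 80 and 29 reads in Input. The IP level, over 2 against 141 reads, was 1.21% of the Input level (exact 95% interval 0.146% to 4.47%, which covers counting error only). Psmb8 passed the filter on low counts only through Input, so its edgeR call is not used. Psmb9 had 1, 34 and 4 reads in IP and 36, 18 and 16 in Input, so that 34 of its 39 IP reads came from IP replicate 2. Its IP level was 47.7% of Input (31.4% to 71.5%), a value that rests on that library. Psmb8 and Psmb9 lie near each other at chr17:34197721-34201454 and chr17:34181987-34187764 (GENCODE M21, GRCm38). Psmb8 shares 14.7% of its exon bases with Gm20496 and Psmb9 shares 5.79% with Tap1, both on the opposite strand. Reads in the shared bases cannot be told apart without a known strand setting.

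A ratio of paired subunits within a library does not depend on scaling. Psmb8 was at 0.113%, 0.0449% and 0.0882% of Psmb5 in IP replicates 1, 2 and 3 and at 2.65%, 5.68% and 3.11% in Input, with 1 read added to each count. The log2 ratios differed by −5.56, a size set by the added read, since it was −3.86 with 5 reads and −6.15 with 0.5 reads added (exact permutation test, two-sided, p = 0.1, the smallest that 3 against 3 allows, and 0.15 adjusted over 3 pairs). Psmb9 was at 0.0431%, 0.568% and 0.0932% of Psmb6 in IP and at 1.48%, 0.67% and 0.733% in Input, a log2 difference of −2.77 (exact permutation p = 0.1, adjusted 0.15) that ran from −3.83 to −1.97 with 1 library left out. Both sets of ratios were lower in every IP library than in every Input library. Psmb10 was at 33.8%, 19.7% and 29% of Psmb7 in IP and at 19.2%, 27.4% and 25% in Input, where the groups overlapped and the log2 difference was 0.19 (exact permutation p = 0.5, adjusted 0.5).

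The 3 inducible subunits, summed, came to 15.5%, 10.7% and 14.3% of the 3 constitutive ones in IP and 10.5%, 15% and 13.7% in Input, nearly all of it Psmb10. Microglial markers were low in IP beside the few Psmb8 reads there: the 15 markers summed to 7.65 to 11.8 CPM in IP and 93.4 to 150 CPM in Input. Endothelial markers summed to 1.97 to 3.20 CPM in IP and 16.2 to 21.3 CPM in Input. Some of both, such as Trem2 with 0 IP reads and Cldn5 with 1, passed the filter on low counts only through Input. As with Psmb8, the calls of these markers are not used here. The part of microglia and endothelium in the Psmb8 and Psmb9 values was not tested. Psmb10 was higher in IP, unlike both marker sums, and the part of these cells in its values was not tested either.

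**Figure D3:**
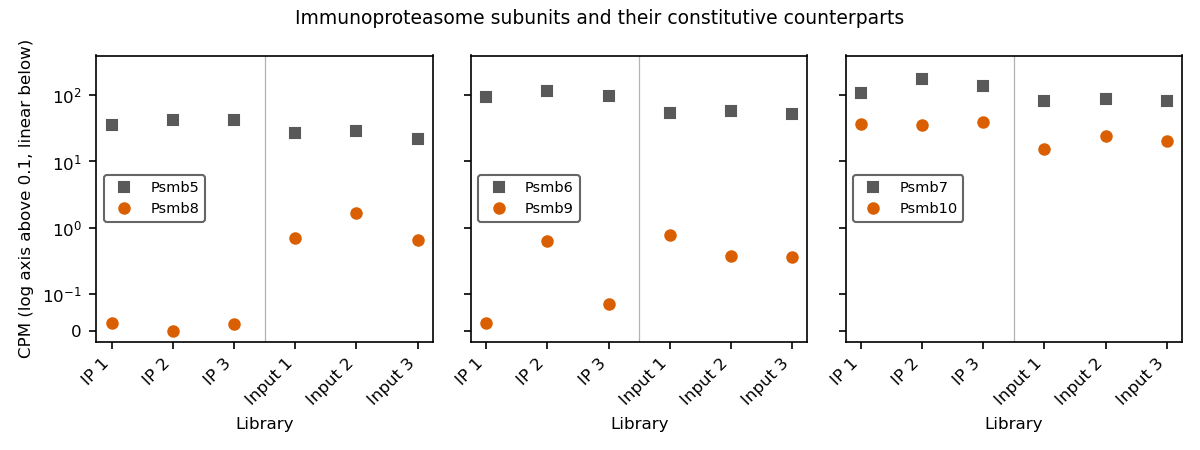
TMM-scaled CPM of each inducible catalytic subunit (orange circles) and its constitutive counterpart (grey squares) in each library, on a vertical axis that is logarithmic above 0.1 CPM and linear below it; the boxed symbols are the key. Psmb8 lies at 0 to 0.0203 CPM in IP and 0.659 to 1.64 CPM in Input, Psmb9 is high in IP replicate 2 alone among the IP libraries, and Psmb10 lies at 35.4 to 39.5 CPM in IP and 15.6 to 24.4 CPM in Input.

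In the base of the cap, the ATPase ring had the lowest median ratio among the parts of the particle. Of Psmc1 to Psmc6, 0 of 6 passed in edgeR with or without the replicate block, 0 of 6 had an unadjusted p under 0.05, and DESeq2 and limma-voom called none. The median log2 fold change was 0.25, although IP lay above Input in every library of Psmc1, Psmc3 and Psmc6 by small margins. Psmc4 had the highest, with 51.3, 80.6 and 68.7 CPM in IP and 50.4, 56.6 and 52.6 CPM in Input, where IP replicate 1 lay among the Input libraries, and a log2 fold change of 0.33. Psmc2 had the lowest, with 70.6, 115 and 100 CPM in IP and 72.2, 90.3 and 118 CPM in Input, and its log2 fold change of 0.03 turned to −0.01 with library totals. Psmc5, at 222, 225 and 213 CPM in IP and 218, 215 and 207 CPM in Input, was the steadiest gene of the ring, and its 0.05 also fell just under 0 with library totals and with upper-quartile scaling. The other log2 fold changes were 0.31 for Psmc1, 0.32 for Psmc3 and 0.20 for Psmc6.

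Of the 3 other base subunits 1 passed. Psmd4, a ubiquitin receptor, stood at 89.3, 97.7 and 92.6 CPM in IP and at 56.4, 63.9 and 64.5 CPM in Input, without overlap and with a log2 fold change of 0.60 ± 0.17 (edgeR adjusted p = 0.0317, up to 0.117 without IP replicate 2). It held the call without IP replicate 1 or Input replicate 3. Psmd2, a scaffold of the base, stood at 99.2, 77.1 and 70.2 CPM in IP and 70.9, 59.9 and 45.7 CPM in Input. In both groups replicate 1 was the high library and replicate 3 the low one, the groups overlapped slightly, and the log2 fold change of 0.48 passed only with the replicate block (edgeR adjusted p = 0.0362, against 0.156 without it). Psmd1, the other scaffold, was level at 169, 164 and 162 CPM in IP and 180, 158 and 138 CPM in Input, with a log2 fold change of 0.06 that became −0.03 with upper-quartile scaling.

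The lid was split. Of its 8 subunits 3 passed as higher, against 9.6% of all genes, and the median log2 fold change was 0.45. Psmd3, a structural subunit, stood at 64.0, 50.4 and 59.2 CPM in IP and at 23.1, 33.8 and 41.1 CPM in Input, with a log2 fold change of 0.82 ± 0.25 (edgeR adjusted p = 0.0397). Psmd8, also structural, stood at 85.9, 113 and 105 CPM in IP and 56.2, 65.2 and 60.6 CPM in Input, with a log2 fold change of 0.74 ± 0.18 (edgeR adjusted p = 0.0199). Psmd7, the partner of the deubiquitinase, stood at 119, 138 and 139 CPM in IP and 80.0, 93.7 and 85.2 CPM in Input, with a log2 fold change of 0.61 ± 0.17 (edgeR adjusted p = 0.03). None of the 3 overlapped between groups. Each lost its call without at least 1 library: Psmd3 held it without Input replicate 3 only (edgeR adjusted p up to 0.104), Psmd7 without IP replicate 1 or Input replicate 3 (up to 0.109), and Psmd8 without IP replicate 1, Input replicate 1 or Input replicate 3 (up to 0.0879).

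Psmd14, the lid's deubiquitinase, was level beside its partner, at 48.1, 83.5 and 72.4 CPM in IP and 63.0, 71.9 and 66.3 CPM in Input. IP replicate 1 was below every Input library, and the log2 fold change of 0.02 changed sign with the scaling. Psmd12 had the lowest log2 fold change of the lid, −0.06, with 91.6, 143 and 138 CPM in IP and 136, 146 and 105 CPM in Input, and the sign turned when Input replicate 2 or IP replicate 1 was left out. Psmd13 stood at 41.7, 33.5 and 26.5 CPM in IP and 22.2, 23.5 and 17.5 CPM in Input, without overlap. Its log2 fold change of 0.68 passed in edgeR only with the replicate block (edgeR adjusted p = 0.0262, against 0.0712), while DESeq2 called it without the block. Psmd6 had 0.01, with a sign that changed with the scaling, and Psmd11 had 0.28, and neither passed.

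Activators open the core without the ATPase ring, and they diverged. Psme4, which encodes the nuclear activator PA200, stood at 27.7, 32.8 and 38.1 CPM in IP and at 98.5, 79.7 and 118 CPM in Input. The highest IP library was far below the lowest Input library, and the log2 fold change was −1.59 ± 0.22 (edgeR adjusted p = 0.00205). It fell in 3 of 3 pairs and in each of 18 alternative fits. Psme4 (chr11:30771726-30880361, plus strand) was also the longest transcript of the set, with 6491 exonic bases against a median of 1469, and none of its 50-base words is shared with another gene.

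Psme3, the nuclear activator PA28 gamma, stood at 182, 197 and 181 CPM in IP and 154, 150 and 178 CPM in Input, with a log2 fold change of 0.22, which missed the threshold. The IP libraries were above the Input libraries by a small margin. Psme1 and Psme2 encode the alpha and beta subunits of the cytoplasmic PA28, which interferon induces. Psme2 stood at 14.5, 18.7 and 16.2 CPM in IP and 7.26, 12.3 and 3.91 CPM in Input, without overlap. Its log2 fold change of 1.08 ± 0.41 passed with the replicate block (edgeR adjusted p = 0.0171) and not without it (0.087). Without the block, DESeq2 and limma-voom called Psme2, and so did edgeR when Input replicate 2 was left out (edgeR adjusted p = 0.038). Of the 50-base words of Psme2, 54.9% are shared with other genes, among them Psme2b. Psme1 stood at 44.7, 61.3 and 56.0 CPM in IP and 27.1, 37.4 and 63.3 CPM in Input, where Input replicate 3 was the highest library of all, and the log2 fold change was 0.34, short of the threshold.

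Psmf1, which encodes the inhibitor PI31, had 22.3, 29.0 and 28.9 CPM in IP and 31.7, 38.2 and 33.9 CPM in Input. Every IP library was below every Input library, but the log2 fold change, −0.37, was not called (edgeR adjusted p = 0.229).

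Among the chaperones that assemble the core, Psmg3 had the largest log2 fold change of all 45 genes. It stood at 23.5, 16.6 and 19.1 CPM in IP and at 5.70, 7.02 and 8.04 CPM in Input, and the value was 1.51 ± 0.28 (edgeR adjusted p = 0.00618). IP was high in every library, most of all in replicate 1. Of its exon bases 9.68% also lie in Gm26938 on the same strand, so part of its reads may be uncertain. Psmg1 stood at 21.2, 19.5 and 19.4 CPM in IP and 11.0, 10.3 and 7.95 CPM in Input, with a log2 fold change of 1.04 ± 0.25 (edgeR adjusted p = 0.0171). Its groups were tight and apart, yet the call ended without IP replicate 2, IP replicate 3 or Input replicate 2 (edgeR adjusted p = 0.0578, 0.0513 and 0.0531). Psmg1 pairs with Psmg2 to place the alpha subunits, and Psmg2, at 29.6, 22.4 and 23.8 CPM in IP and 19.3, 15.6 and 21.6 CPM in Input, had 0.42 and did not pass, although its groups did not overlap.

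Psmg4, the partner of Psmg3, stood at 4.52, 9.48 and 6.75 CPM in IP and 2.26, 4.34 and 11.4 CPM in Input. In both groups its mean CPM, not corrected for length, was the lowest among the chaperones. Its groups overlapped, and its log2 fold change of 0.20 became −0.09 without IP replicate 2, −0.18 without Input replicate 1 and 1.08 without Input replicate 3. Of the chaperones that assemble the ATPase ring, 0 of 3 passed in edgeR over all 6 libraries without the replicate block. Psmd5 stood at 99.6, 84.2 and 85.8 CPM in IP and 77.5, 54.0 and 41.8 CPM in Input, without overlap. Its log2 fold change of 0.64 passed with the block (edgeR adjusted p = 0.0134) and not without it (0.0903). Without the block, DESeq2 called Psmd5, and so did edgeR when Input replicate 1 was left out (edgeR adjusted p = 0.0219). Psmd10 had 0.38 and Psmd9 had 0.35. Psmd9 stood at 29.9, 28.2 and 23.0 CPM in IP and 16.8, 18.8 and 27.9 CPM in Input, so that Input replicate 3 lay among the IP libraries. Psmc3ip, the gene that is no subunit, had 1.05, 1.88 and 4.89 CPM in IP and 2.87, 4.54 and 4.43 CPM in Input, and its log2 fold change, −0.60, was not called and ran from −1.42 without IP replicate 3 to −0.21 without IP replicate 1.

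Levels can be compared between subunits only per length, here as CPM per kilobase of exons of coding transcripts. In IP the 14 core subunits ran from 2.94 CPM per kilobase (Psma3) to 157 (Psma7), with a median of 44.2, and in Input from 3.42 to 93.4, with the same genes at the ends and a median of 32.8. The 17 cap subunits ran from 17.0 (Psmd13) to 167 (Psmc5) in IP, median 45.9, and from 10.6 to 162 in Input, median 36.9. Subunits that occur in equal copies in the particle thus had RNA levels spread over 53.3-fold in the core and 9.83-fold in the cap in IP, and over 27.4-fold and 15.3-fold in Input. The core value rests on Psma3, and without it the core spread was 6.09-fold in IP and 6.40-fold in Input, from Psmb3 upward. For Psma3 the shared words named above touch the low end.

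Summed per kilobase, the cap stood at 0.929, 0.778 and 0.826 of the core in IP and at 1.21, 1.06 and 1.08 in Input. Every IP library was below every Input library, with means of 0.844 ± 0.0769 and 1.12 ± 0.0836 (SD, n = 3 each) and a log2 difference of −0.41. The ATPase ring alone stood at 0.440, 0.360 and 0.379 of the core in IP and 0.596, 0.517 and 0.553 in Input, a log2 difference of −0.50, and the lid at 0.331, 0.306 and 0.324 against 0.425, 0.391 and 0.384. These groups did not overlap either. The alpha ring stood at 0.546, 0.613 and 0.681 of the beta ring in IP and 0.637, 0.752 and 0.756 in Input, with overlap. Psme4 stood at 0.0625, 0.0683 and 0.0864 of Psme3 in IP and 0.263, 0.218 and 0.271 in Input, a log2 difference of −1.80. Psme1 and Psme2 together stood at 0.806, 1.01 and 0.985 of Psme3 in IP and 0.552, 0.819 and 0.910 in Input, with overlap. No p is given for these sums, since the genes were chosen with their values known.

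**Figure D4:**
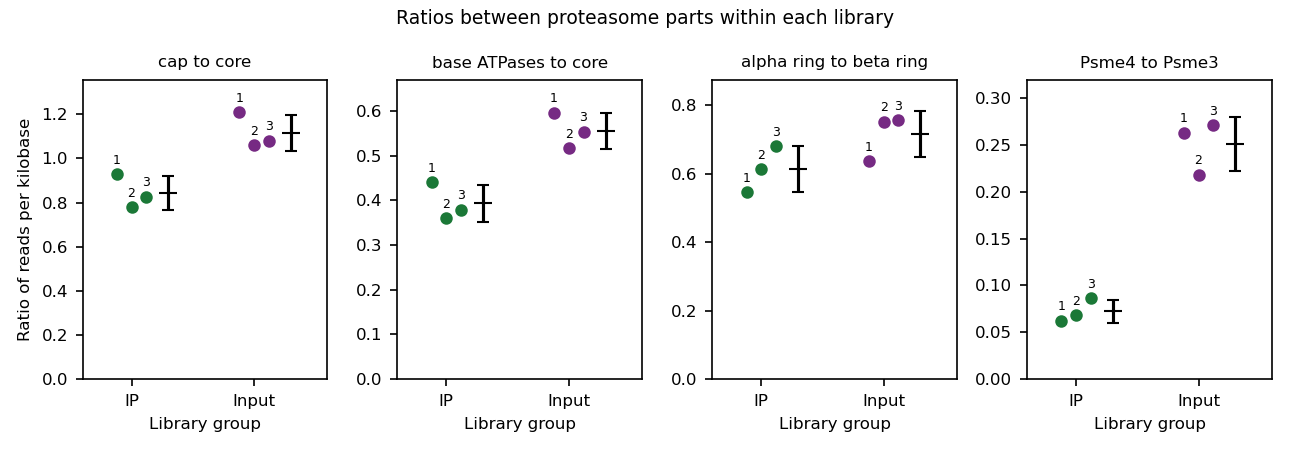
Ratio of one part of the proteasome to another in reads per kilobase (vertical axes, from 0) in each library (points, numbered by replicate, IP green and Input purple), with the group mean and SD beside them (n = 3). Cap to core lies at 0.778 to 0.929 in IP and 1.06 to 1.21 in Input, and the alpha to beta ratio overlaps between groups.

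The genes also shared a pattern across libraries that the choice of genes did not use. IP replicate 1 was the lowest IP library for 31 of 45 genes (68.9%, against 39% of all genes tested), and IP replicate 2 the highest for 29 (64.4%, against 29.6%). Input replicate 2 was the highest Input library for 26 of 45 (57.8%, against 26.5%) and the lowest for 3 (6.67%, against 24.5%). The set summed to 3125, 3740 and 3417 CPM in IP replicates 1, 2 and 3 and to 2549, 2756 and 2639 CPM in Input. Lanes differed with the replicate number (3, 8 and 4), so lane and replicate cannot be told apart.

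Transcript length moved with the ratios. The median exonic length of the 45 genes was 1469 bases, against 3432 over 13769 genes tested that had a length. Across the 45 genes, which share libraries and are not independent replicates, Spearman's rho between length and log2 fold change was −0.383, and −0.340 without Psme4, beside −0.296 over all genes. The part of length in the members' ratios was not tested. In 10 genes at least 10% of the 50-base words are shared with other genes, and 12 have exon bases in another gene. Among the 9 core subunits under that share, 5 passed as higher and the median log2 fold change was 0.67. Among 14 such cap subunits 4 passed, with a median of 0.26. Over all genes tested, 9.6% passed as higher.

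Of 30 other genes of the pathway, 29 were tested, 5 rose (17.2%, against 9.6% of all genes), 2 fell (6.9%, against 15.6%) and the median log2 fold change was 0.23. Pomp, which encodes the chaperone that matures the beta ring, stood at 409, 396 and 391 CPM in IP and at 160, 162 and 161 CPM in Input. Libraries within each group were nearly equal, and its log2 fold change was 1.31 ± 0.15 (edgeR adjusted p = 0.000902). Shfm1, the older symbol of Sem1, a small lid subunit outside the symbol pattern, rose by 1.24 ± 0.37 on the log2 scale (edgeR adjusted p = 0.0378). Akirin2, which brings proteasomes into the nucleus, rose by 0.82 (edgeR adjusted p = 0.0104), and Zfand2a, a stress-induced partner of the cap, by 0.78 (edgeR adjusted p = 0.0154).

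Nfe2l2, a factor that binds antioxidant response elements, stood at 1.26, 1.41 and 3.16 CPM in IP and at 25.0, 16.4 and 37.2 CPM in Input, a log2 fold change of −3.75 ± 0.48 (edgeR adjusted p = 0.00135). Its IP libraries were all far below its Input libraries. Nfe2l1, the factor known for raising subunit genes, had 0.14 and did not pass. Fbxo7, which binds the inhibitor PI31, fell by 0.86 on the log2 scale (edgeR adjusted p = 0.0416). Pomp, Akirin2 and Nfe2l2 passed in 6 of 6 fits without 1 library, while Shfm1 (edgeR adjusted p up to 0.116, without Input replicate 2) and Zfand2a (0.0685, without IP replicate 3) passed in 2 and 3 of 6. The fall of Fbxo7 was lost in 6 of 6, with edgeR adjusted p from 0.0583 to 0.107.

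The antigen presentation genes, which use the peptides that the proteasome makes, had a median log2 fold change of −1.02 over 5 genes, and 1 of 5, Tap1, passed as lower without the replicate block (20%, against 15.6% of all genes). Tap1, a peptide transporter, had 0 reads in IP and 179 in Input, of which 153 came from Input replicate 3. It passed the filter on low counts only through Input, so nothing is read from its call. B2m, the light chain of class I molecules, had a log2 fold change of −1.02 (edgeR adjusted p = 0.0602, but 0.00721 under the replicate block), and the class I heavy chain H2-K1 had −2.70 (edgeR adjusted p = 0.0727, but 0.0237 under the block). H2-D1 had −0.29 and Tap2 had −0.95, and neither passed. Microglial and endothelial markers, given above beside Psmb8, were lower in IP too, and their part in these values was not tested.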

How the data were processed

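The authors deposited 1 table of raw gene counts per library, made with STAR 2.0.0e and HTSeq on mm10, per the submitters' processing notes. Annotation, counting mode and strand setting, not given in the sources used here, decide how reads of overlapping genes are shared. Rows that name no gene entered neither library sizes nor the fit. Records without a feature were 7.65% to 7.85% in IP and 14% to 17.7% in Input. Alignments at more than 1 place made up 38.5% to 45% in IP and 23.6% to 27.2% in Input, so genes with copies lose reads. Records ambiguous between genes made up 1.53% to 1.92% in IP and 7.37% to 13.2% in Input, most in Input replicate 1. Their part in the ratios of genes with overlapping exons was not tested. No 2 libraries of the same group agreed in counts within sampling noise.

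Groups, replicate numbers and lanes came from titles and descriptions. Counts were filtered with filterByExpr, scaled with TMM factors and tested on group with edgeR 4.0.16 (R 4.3.3), two-sided quasi-likelihood, with Benjamini-Hochberg adjustment over all genes at 0.05. CPM are TMM-scaled, except in the rule for members, which used library totals. The SE is the log2 fold change divided by the root of F. Same-numbered libraries deviated together from their group means (correlations 0.244, 0.104 and 0.127 over 16496 genes). The numbers in the titles were read as pairs, but the main fit left the pairing out, and the fit with the replicate block was an alternative. The other alternatives were scaling (RLE, library totals, upper quartile), filters, features named by clone accessions left out, DESeq2 1.42.0, limma-voom (limma 3.58.1), and each library or pair left out. Exon lengths and shared 50-base words came from GENCODE M21 on GRCm38, the assembly of mm10. The fit was tested on simulated data. The members, lists and tests were chosen with earlier results of these data known. Each member is named; library values go to called members, catalytic subunits and counterparts, the extremes of each role and members whose call differs with the block. Values given for Psmd1, Psmc5, Psmd14, Psme1, Psme3, Psmg2, Psmd9, Psmc3ip and Slc17a6 go beyond that rule and were added with their values known. One called gene of the pathway list is not reported here.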

Additional observations from a re-analysis of the deposited data

How the results depend on the processing

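Counts of genes called higher moved with scaling and libraries. From 12, the count became 7 with library totals, 7 with upper-quartile scaling and 21 with the replicate block, and 0 to 12 with libraries left out. It was 18 with DESeq2, which called 2090 of 16496 genes higher, and 14 with limma-voom, which called 1742 of 16496, both without the block. The main fit called 1583 of 16496 higher. With RLE scaling, other filters or clone features left out, the count for the set was 10 to 13. The core median of 0.65 became 0.56 with upper-quartile scaling and ran from 0.5655 to 0.7237 with libraries left out. The summed inducible to constitutive log2 difference of 0.05 ran from −0.10 to 0.21, and the cap to core difference from −0.48 to −0.35. No called gene changed sign in 18 fits.

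Of the uncalled genes 8 did. With library totals the log2 fold changes were −0.0103 (Psmc2), −0.0028 (Psmc5), −0.0164 (Psmd14) and −0.0386 (Psmd6), and with upper-quartile scaling −0.0576, −0.0426, −0.0643 and −0.0815, with −0.0313 for Psmd1. With the 1 CPM filter they were −0.0229, −0.0029, −0.0289 and −0.0439, with limma-voom −0.0127 (Psmd14) and −0.0121 (Psmd6), with the replicate block −0.0144 and −0.0118, and without clone features −0.0035 (Psmd6). With libraries left out they ran from −0.1642 to 0.2425 (Psmc2), −0.0220 to 0.1668 (Psmd1), −0.1525 to 0.2299 (Psmd14), −0.1837 to 0.1179 (Psmd6), −0.2582 to 0.1653 (Psmd12), −0.2897 to 1.0944 (Psmg4) and −0.4036 to 0.0964 (Psma3). The cause of these changes was not tested. Among the 45 genes and the pathway lists, the replicate block changed no call but those named beside the results. Fits without 1 library leave an arm with 2 samples, and depth limits Psmb8 and Psmb9, with few reads each.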
